A study of Mus musculus with 7 samples.

Results

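The head module of Mediator is described here through the 8 genes that encode its subunits, Med6, Med8, Med11, Med17, Med18, Med20, Med22 and Med30. They were taken by name from a deposited table of 46959 features, and all 8 were present and passed the filter on low reads. RNA came from purified splenic mouse B cells cultured for 4 days with lipopolysaccharide (LPS, 1 µg/mL), which activates B cells through a Toll-like receptor, and interleukin 4 (IL-4, 20 ng/mL), which steers antibody class switching. The groups were wild type (WT, n = 3) and cKO MED1 (n = 4), a genotype named for a knockout of Med1, which encodes a subunit of the middle module. The driver of the deletion, the strain and the age of the mice are not given in the sources used here, nor is it stated whether each replicate was a separate mouse, so the p-values cover only how these samples varied, which may be technical. Of the 8 head genes, 5 (Med8, Med11, Med17, Med18 and Med22) were lower in cKO MED1, to between 73.9% and 83.6% of the WT mean, and 0 were higher. Of all tested genes 14.6% were called lower and 13.4% higher, and among tested genes at the read levels of these 8 the shares were 23.2% and 8.14%. For Med6, Med20 and Med30 the groups overlapped, and no change passed the test. By Y-linked and Xist reads all 3 WT libraries and cKO MED1 replicate 3 were male, and the other cKO MED1 libraries were female. Genotype and sex thus largely coincide, and 0 of the 5 calls remained without WT replicate 1 or with sex as a covariate.

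Mediator is a large complex that carries signals from transcription factors at enhancers to RNA polymerase II at promoters. Its head module meets the polymerase and the general transcription factors, the middle module connects head and tail, the tail receives activators, and a separable kinase module can block the contact with the polymerase. Within the head, Med17 is the central scaffold, Med11 and Med22 form a pair held by Med17, Med8 anchors the Med18 and Med20 pair known as the movable jaw, Med6 lies at the border with the middle module, and Med30 is a subunit that yeast lacks.

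The labels were checked first. Reads per library were recovered from the deposited values and ranged from 54736580 to 61149274 in WT and from 31937372 to 49603193 in cKO MED1, so every WT library was deeper. Med1 had 4755, 4173 and 4210.1 normalised reads in the WT libraries in replicate order and 2585, 2172, 2249 and 2436 with cKO MED1, where normalised reads are reads scaled by TMM factors to a common library size. The 8 B cell markers examined were all expressed, with summed levels of 178632 to 192168 normalised reads in WT and 129724 to 144509 in cKO MED1, and 5 of the 8 were lower by limma (14.6% of all tested genes were), led by Cd79a (log2 fold change -0.88) and Ms4a1 (-0.66). Of 8 T cell markers 7, and of 9 macrophage and monocyte markers 7, stayed under 100 normalised reads on average in both groups. The exceptions were Lck, a kinase gene that fell (-0.49), Adgre1 and Cd68. The summed T cell list lay at 1257 to 1686 in WT and 1029.9 to 1297 in cKO MED1, nearly all of it Lck (means of 1453 and 1036). The other T cell markers tested, 6 of 7, had positive fold changes that did not pass (median of the 7, 0.51), among them Cd3d at 7.39 and 21.5 normalised reads and Cd4 at 4.88 and 20.6. The mean log2 level of the tested T cell markers relative to WT was -0.40, 0.53, 0.82 and 1.40 across the cKO MED1 libraries in replicate order, and the part of this in the head gene values was not tested. The macrophage list summed to 421 to 712 in WT and 559.7 to 759 in cKO MED1, and 0 of its 7 tested genes were called. Plasma cell markers moved both ways. Of 7, 2 were lower, Jchain (-1.58) and Sdc1 (-1.22), and 3 were higher, Prdm1 (0.71), Derl3 (0.61) and Irf4 (0.41), beside 14.6% and 13.4% of all tested genes. Their sums, most of which is Jchain, Xbp1 and Irf4, were 83480.0 to 126622 in WT and 63093 to 85858 in cKO MED1. Y-linked and Xist reads marked all 3 WT libraries and cKO MED1 replicate 3 as male and cKO MED1 replicates 1, 2 and 4 as female, with 1241 normalised Xist reads in WT replicate 2, where the other WT libraries had 59.2 and 11.2. Olfactory and vomeronasal receptor genes, which B cells are not known to use, held 0.093 to 0.207 normalised reads per kb of exon in WT and 0.198, 0.278, 0.527 and 0.902 in cKO MED1 replicates 1 to 4. In bulk RNA a change in the share of cells of a type and a change in RNA per cell cannot be told apart.

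Promoter windows of 300 bases (250 before the start and 50 after) were found in RefSeq for 6 of the 8 genes, in the build GRCm38.p6, and those of Med8 and Med30 are not used here. The stretches shown are those of 2 genes that fell and stand alone at their start, Med17 and Med18, and of 2 genes that share a short gap with a gene read in the opposite direction, Med20 (which did not pass the test) with Bysl, and Med22 (which fell) with Rpl7a. Each is read 5′ to 3′ on the strand of the head gene, ends before its annotated start, and carries matches to the searched motifs in capitals. The Med17 stretch is chr9:15279932-15280156 (minus strand), the Med18 stretch chr4:132463922-132464171 (minus strand), the gap of 89 bases between Bysl and Med20 chr17:47611493-47611581 (plus strand) and the gap of 86 bases between Rpl7a and Med22 chr2:26910678-26910763 (minus strand).
Med17: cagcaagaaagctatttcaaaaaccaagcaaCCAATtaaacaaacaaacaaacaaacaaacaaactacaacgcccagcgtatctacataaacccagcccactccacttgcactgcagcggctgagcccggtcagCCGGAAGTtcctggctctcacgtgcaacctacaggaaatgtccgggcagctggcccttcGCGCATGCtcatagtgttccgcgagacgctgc
Med18: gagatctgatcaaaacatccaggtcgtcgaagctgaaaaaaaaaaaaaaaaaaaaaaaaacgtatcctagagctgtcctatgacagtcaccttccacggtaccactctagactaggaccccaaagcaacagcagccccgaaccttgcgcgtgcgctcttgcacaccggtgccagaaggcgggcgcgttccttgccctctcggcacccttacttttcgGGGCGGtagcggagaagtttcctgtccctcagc
Med20: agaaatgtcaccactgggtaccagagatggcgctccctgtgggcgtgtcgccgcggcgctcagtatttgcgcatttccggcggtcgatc
Med22: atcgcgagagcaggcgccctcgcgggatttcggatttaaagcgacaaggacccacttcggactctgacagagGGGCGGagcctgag

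Motifs were searched by letters on both strands of the 6 full windows, and the share of all 32851 windows of the same length with each motif is given beside the count. GGGCGG, the core bound by SP factors, was in 4 windows (Med6, Med18, Med20 and Med22; 35.7% of all windows). CCGGAAGT, an ETS factor core, was in 2 (Med17 and Med18; 3.89%), and in Med18 it lay just after the start and so outside the stretch shown. GCGCATGC, part of the NRF1 motif, was in 1 (Med17; 2.71%). CCAAT, the NF-Y core, was in 2 (Med6 and Med17; 37.4%). AAGATGGCG (YY1 type; 1.40%) and TATAAA (13.6%) were in none of the 6, and the Med11 window held none of the 6 motifs searched. The windows of these genes ranged from 53.3% GC in Med18 to 68.0% in Med22, where the median of all windows was 52.7%. No motif was shared by all 4 of the genes that fell and had a window.

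Med17, the scaffold of the head and its most abundant message by reads, had 1898, 1624 and 1719.8 normalised reads in the WT libraries, given here and below in replicate order. With cKO MED1 it had 1419, 1367, 1384 and 1243. Every cKO MED1 library was thus below every WT library, with the lowest value in replicate 4. The mean went from 1747 ± 139 (SD, n = 3) to 1353 ± 76.7 (SD, n = 4), a log2 fold change of -0.37 (SE 0.09, 95% confidence interval -0.56 to -0.17, limma adjusted p = 0.0153). Fold changes here are cKO MED1 minus WT on the log2(normalised reads + 1) scale, and a gene was called at a Benjamini-Hochberg adjusted p under 0.05 over 18062 genes. Med17 (ENSMUSG00000031935.9) lies on chromosome 9 from 15260351 to 15279931 in GRCm38, on the minus strand, with no other annotated gene over it.

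Med11 and Med22, a pair in the complex, were each called lower. Med22 had 1338, 1067 and 1209 normalised reads in WT and 929.6, 993, 960.1 and 807 in cKO MED1. The mean of 1205 ± 136 became 922 ± 81.2, which on the log2 scale is -0.38 with an SE of 0.11 (limma adjusted p = 0.0247), and the groups did not overlap. Med11 had 737, 756 and 592 reads in WT and 459, 580.0, 578 and 436 in cKO MED1. Its groups were apart by a narrow margin, since WT replicate 3 lay just above cKO MED1 replicates 2 and 3. The Med11 mean went from 695 ± 89.3 to 513 ± 76.6, and its log2 fold change of -0.44 (SE 0.13, 95% confidence interval -0.73 to -0.15, limma adjusted p = 0.0334) was the most negative of the 8. Med22 lies on chromosome 2 from 26905262 to 26910677 (minus strand) and Med11 on chromosome 11 from 70451919 to 70453727 (plus strand), the chromosome that also carries Med1.

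In the jaw, Med8 and Med18 were lower and Med20 was not. Med8, the anchor, had 1443, 1360.3 and 1368 normalised reads in WT and 1234, 1102, 1234 and 1078 in cKO MED1, without overlap. Its means were 1391 ± 45.6 and 1162 ± 83.8, and its change of -0.26 (95% confidence interval -0.45 to -0.07, limma adjusted p = 0.0456) was the smallest that passed. Med18 had 569, 484 and 458 reads in WT and 388, 396, 409.6 and 339 in cKO MED1, again without overlap. Its means were 504 ± 57.8 and 383 ± 30.9 (a change of -0.39, 95% confidence interval -0.64 to -0.14, limma adjusted p = 0.028). Med20, which pairs with Med18 in the protein complex, had 1153, 1188 and 1073 reads in WT and 1194, 1088, 1048 and 1146 in cKO MED1. These values were interleaved, with means of 1138 ± 58.9 and 1119 ± 64.0, a change of -0.02 (limma adjusted p = 0.846) and a 95% confidence interval from -0.22 to 0.17. Med8 lies on chromosome 4 from 118409337 to 118415782 (plus strand), Med18 on the same chromosome from 132458731 to 132463921 (minus strand), and Med20 on chromosome 17 from 47611582 to 47624418 (plus strand).

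**Figure D1:**
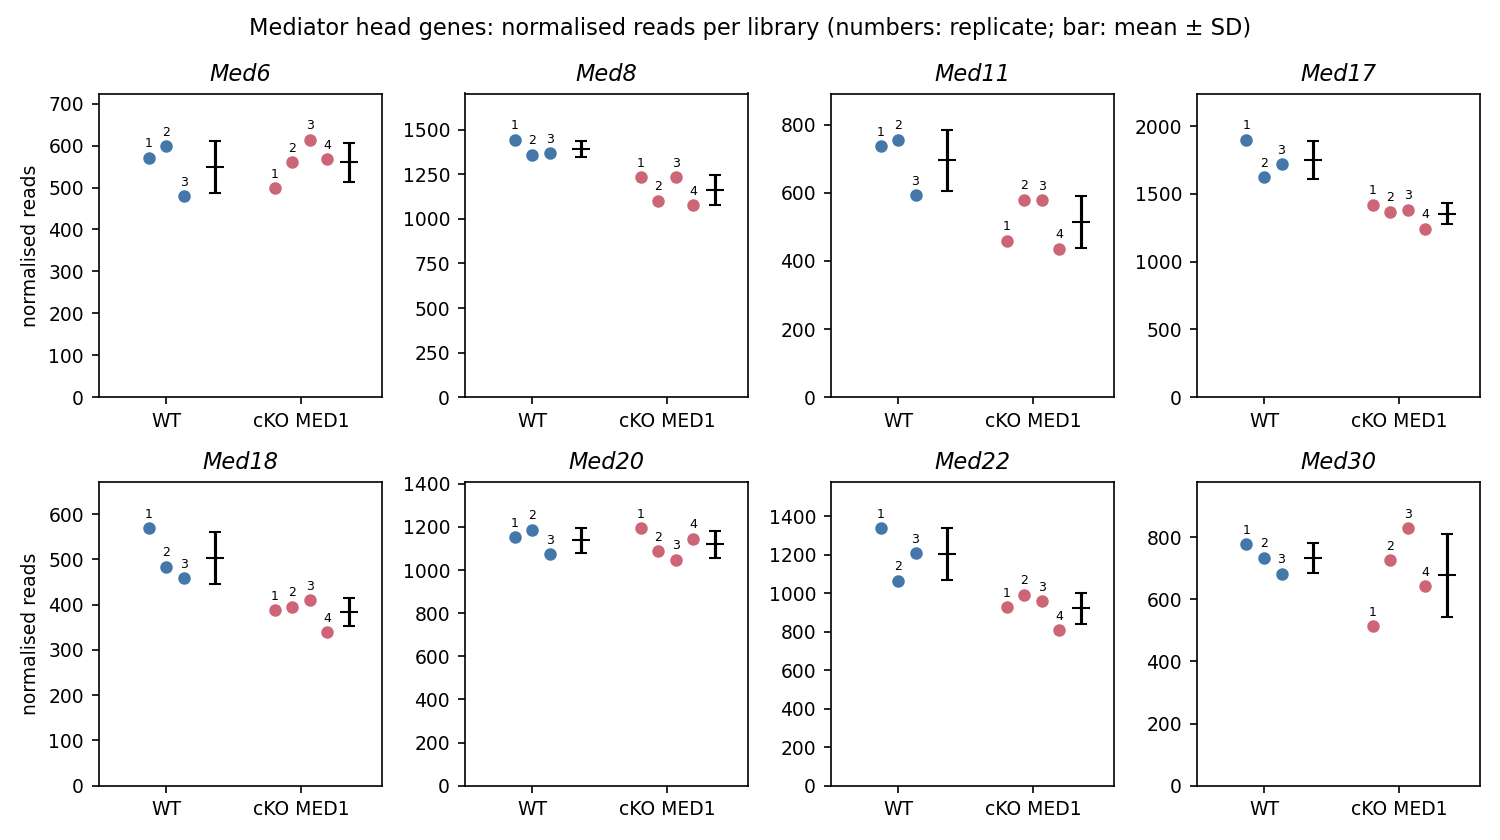
Normalised reads (y axis, from 0) of the 8 head genes in each WT (blue) and cKO MED1 (red) library, labelled by replicate number, with the mean ± SD as a bar beside each group. In Med8, Med11, Med17, Med18 and Med22 all 4 cKO MED1 points lie below all 3 WT points, whereas the points of Med6, Med20 and Med30 are interleaved.

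Med6 and Med30 gave no call and varied in their own way among the cKO MED1 libraries. Med6, at the border with the middle module, had 571, 598 and 479 normalised reads in WT and 499, 560.5, 614 and 567 in cKO MED1. Its log2 fold change was 0.03 (SE 0.11, 95% confidence interval -0.21 to 0.27, limma adjusted p = 0.852), and its sign turned under other scalings. Med30 had 778, 734 and 682 reads in WT and 514, 726, 828 and 642 in cKO MED1. The male cKO MED1 library, replicate 3, was thus the highest of all 7 for both genes, and replicate 1 the lowest of the 4 cKO MED1 libraries for both. Med30 had the widest spread of the 8 in cKO MED1, with a coefficient of variation of 19.7% against 6.58% in WT, and its change of -0.13 (limma adjusted p = 0.507) has an interval from -0.44 to 0.18 that still holds falls as large as those of the called genes. Med6 lies on chromosome 12 from 81573557 to 81595008 (minus strand) and Med30 on chromosome 15 from 52712408 to 52730564 (plus strand).

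The 5 lower calls among 8 stand beside a background of 14.6% of all 18062 tested genes called lower and 13.4% called higher. Lower calls were commoner at the read levels of these genes, and among the 4103 tested genes between the lowest and the highest mean CPM of the 8 (9.04 to 31.7) 23.2% were called lower and 8.14% higher. The median log2 fold change was -0.31 for the 8 head genes, -0.11 for those 4103 genes and 0.04 for all tested genes. Groups were apart, with cKO MED1 below, in 5 of the 8 head genes, 31.1% of the genes in that level range and 19.8% of all tested genes. No head gene was higher by limma, edgeR or DESeq2, and 0 were higher at an unadjusted p under 0.05. Before scaling, a head gene had between 185 and 2757 reads in a library.

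**Figure D2:**
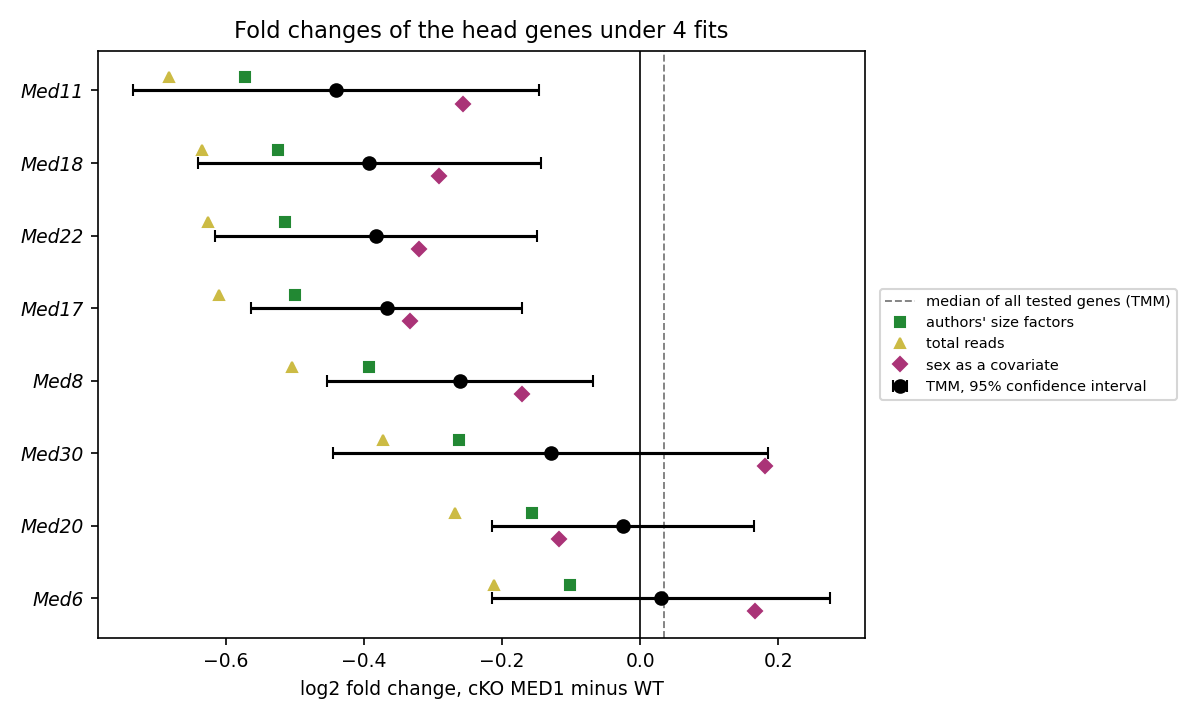
Log2 fold change (x axis, cKO MED1 minus WT) of each head gene with its 95% confidence interval under TMM scaling (black), and the estimates with the authors' size factors (green), total reads (yellow) and sex as a covariate (purple). The grey dashed line is the median of all tested genes under TMM scaling, 0.04. The intervals of Med6, Med20 and Med30 cross 0, and the 5 other genes stay below 0 under all 4 fits.

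Scaling set the size of the change but not the direction of the 5 called genes. With the authors' size factors their log2 fold changes were between -0.57 (Med11) and -0.39 (Med8), and with total reads between -0.68 and -0.50, while the median of all genes moved to -0.10 and -0.21. The same scalings gave -0.10 and -0.21 for Med6, -0.16 and -0.27 for Med20, and -0.26 and -0.37 for Med30. With a filter of a CPM of at least 1 in 3 libraries, which also alters the TMM factors, the 5 changes were smaller. They lay between -0.33 (Med11) and -0.15 (Med8), and only Med17 passed (-0.25, limma adjusted p = 0.027). After the receptor-gene background was subtracted by exonic length, 5 head genes were still called lower. That background was at most 0.902 reads per kb, where Med18, the lowest of the 5 per kb, had 192 in cKO MED1. A subtraction of this size could hardly change a call, so no conclusion is drawn from it. In cKO MED1 replicate 1, which had 0.198 receptor-gene reads per kb, each of the 5 was below all WT libraries. The part of this background in the falls was not tested.

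The calls were close to the threshold, and single libraries decided them. This was not particular to the head genes, since lower calls over all 18062 tested genes, 2646 in the main fit, also moved. They numbered 841, 1764 and 2305 when WT replicates 1, 2 and 3 were left out in turn. For cKO MED1 replicates 1 to 4 they numbered 3187, 2473, 2182 and 1724, so only the first of these rose. Whether the head genes lost more calls than other genes was not tested. Without WT replicate 1, which was the highest of the 7 libraries for Med8, Med17, Med18 and Med22, 0 of the 5 passed by limma, with adjusted p from 0.0736 (Med17) to 0.142 (Med8), although 5 were lower at an unadjusted p under 0.05 and the fold changes were -0.33 for Med17, Med18 and Med22, -0.42 for Med11 and -0.26 for Med8. Without WT replicate 2, 2 passed (Med17 and Med22), and without cKO MED1 replicate 4 only Med17 did (-0.33, limma adjusted p = 0.0366). The count was 4 without WT replicate 3 or cKO MED1 replicate 2, the missing gene being Med8 both times. With sex as a covariate, a fit whose genotype effect rests on cKO MED1 replicate 3 alone, 0 passed and 1 was lower at an unadjusted p under 0.05. The log2 fold changes were then -0.33 for Med17, -0.32 for Med22, -0.29 for Med18, -0.26 for Med11 and -0.17 for Med8. Genotype and sex cannot be told apart in the other 3 cKO MED1 libraries.

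Ratios of reads within a library do not depend on scaling, and 4 were computed, chosen after the values of these genes were seen. Of these, 2 were the pairs known from the structure of the complex. The others were Med20 and Med22, each over the protein-coding gene that shares its start region and is read in the opposite direction. Where 1 gene of a pair was called lower and the other was not, a shifted ratio restates those changes and is no separate result. The adjustment over the 4 ratios does not cover this choice. The Med18 to Med20 ratio was 0.493, 0.407 and 0.427 in WT and 0.325, 0.364, 0.391 and 0.296 in cKO MED1, so that the groups did not overlap, and the mean log2 ratio differed by -0.37 (cKO MED1 minus WT). The Med11 to Med22 ratio was 0.583 ± 0.113 in WT (n = 3) and 0.555 ± 0.0483 in cKO MED1 (n = 4), and its ranges overlapped. A two-sided exact permutation test has 35 ways to assign the libraries and in the form used can give no p below 0.0571, and p was 0.0571 for Med18 to Med20 (adjusted over the 4 ratios, 0.114) and 0.743 for Med11 to Med22 (adjusted, 0.743). That limit belongs to this form of the test, which doubles the smaller tail, and other tests of the ratios were not run.

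Protein-coding neighbours across a shared start were examined for Med20 and Med22. Bysl, a gene for a factor of small ribosomal subunit assembly whose start lies 90 bases from that of Med20, had 1281, 997 and 1016 normalised reads in WT and 724, 678, 611 and 501 in cKO MED1. It fell by 0.81 with an SE of 0.14 (limma adjusted p = 0.00319), beside a change of -0.02 for Med20. The Med20 to Bysl ratio was 1.05 ± 0.146 in WT and 1.81 ± 0.318 in cKO MED1 (n = 3 and 4, exact permutation p = 0.0571, adjusted 0.114), without overlap. This ratio restates the fall of Bysl beside the small change of Med20 and is no separate result. Rpl7a, a ribosomal protein gene that starts 87 bases from Med22, had 44465 ± 4267 reads in WT and 46135 ± 5717 in cKO MED1 (a change of 0.05, limma adjusted p = 0.808, negative with the authors' size factors and total reads). The Med22 to Rpl7a ratio was 0.0274 ± 0.0051 and 0.0202 ± 0.0026, with ranges that overlapped (n = 3 and 4, exact permutation p = 0.114, adjusted 0.152).

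**Figure D3:**
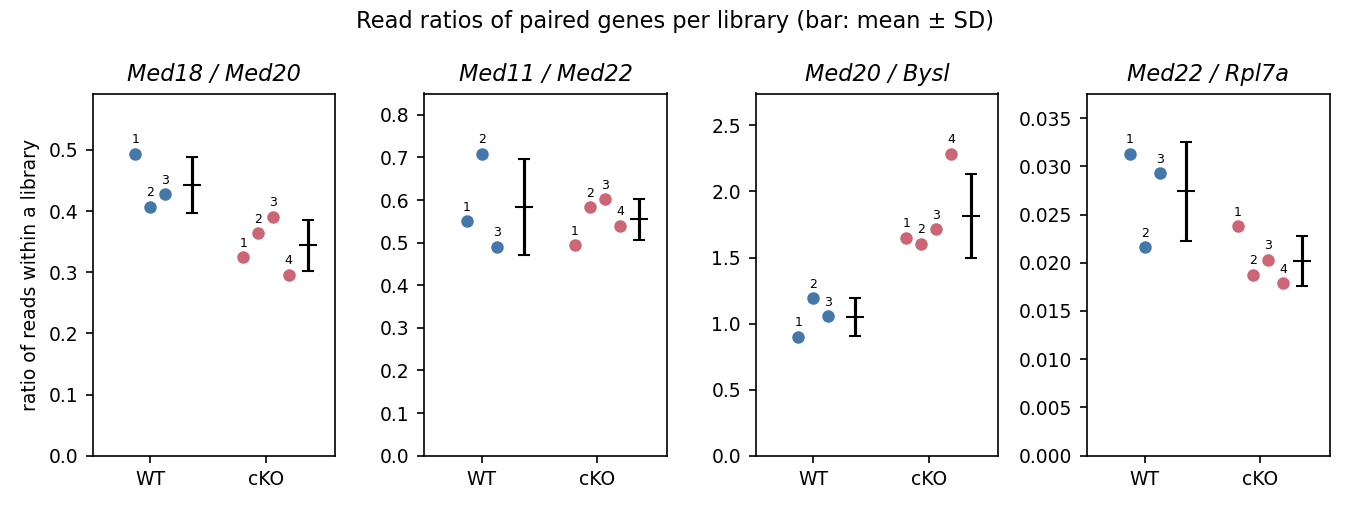
Ratio of reads of the first to the second gene within each library (y axes from 0) for 4 gene pairs, with WT in blue, cKO MED1 in red, replicate numbers at the points and the mean ± SD as bars. The groups do not overlap for Med18 / Med20 and Med20 / Bysl, and overlap for Med11 / Med22 and Med22 / Rpl7a.

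Annotated overlaps bear on 2 members. Gm20517, a gene on the strand of Med20 that starts 7 bases from it, shares 513 exonic bases with Med20, and Kpna2-ps, a pseudogene on the opposite strand, lies over 21.4% of the Med20 exons. Reads in these stretches may have been left out or assigned otherwise by the authors' counting, so the Med20 level is uncertain. Gm20517 itself held 20.5 ± 3.09 normalised reads in WT and 22.4 ± 8.65 in cKO MED1, and Kpna2-ps 15.1 ± 1.78 and 17.9 ± 7.40, both far below Med20. Over Med6 lie Gm16572 and Gm16570, outside its exons, which had at most 25.7 normalised reads in any library. Gm23969, a small nucleolar RNA gene near the Med22 start, had 25.4 ± 4.19 and 30.4 ± 7.70.

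Per kb of exon, the 8 messages spanned a range of levels. In WT the order was Med11 (664 ± 85.3 normalised reads per kb), Med30 (617 ± 40.6), Med8 (463 ± 15.2), Med17 (413 ± 32.9), Med6 (379.6 ± 43.1), Med22 (333 ± 37.6), Med18 (252 ± 28.9) and Med20 (155 ± 8.0). Neighbours in this order whose WT ranges overlapped were Med11 and Med30, Med17 and Med6, and Med6 and Med22, while the other 4 steps were larger than the spread. In cKO MED1 Med30 (572 ± 112) stood above Med11 (491 ± 73.2) and Med6 (387 ± 32.7) above Med17 (319.9 ± 18.1), the first of these with overlapping ranges and the second without. Med20 (153 ± 8.73) stayed the lowest per length in both groups, although by plain reads it was the fourth of the 8 in WT. Its exons include the stretches overlapped by Gm20517 and Kpna2-ps, where reads may not have been counted, so this place is uncertain. Exonic length decided part of this order, since with the length of the longest transcript Med8 came first in WT at 797.8 per kb, and Med6 (519) and Med17 (441) changed places. These levels are of RNA and give no measure of subunit protein.

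**Figure D4:**
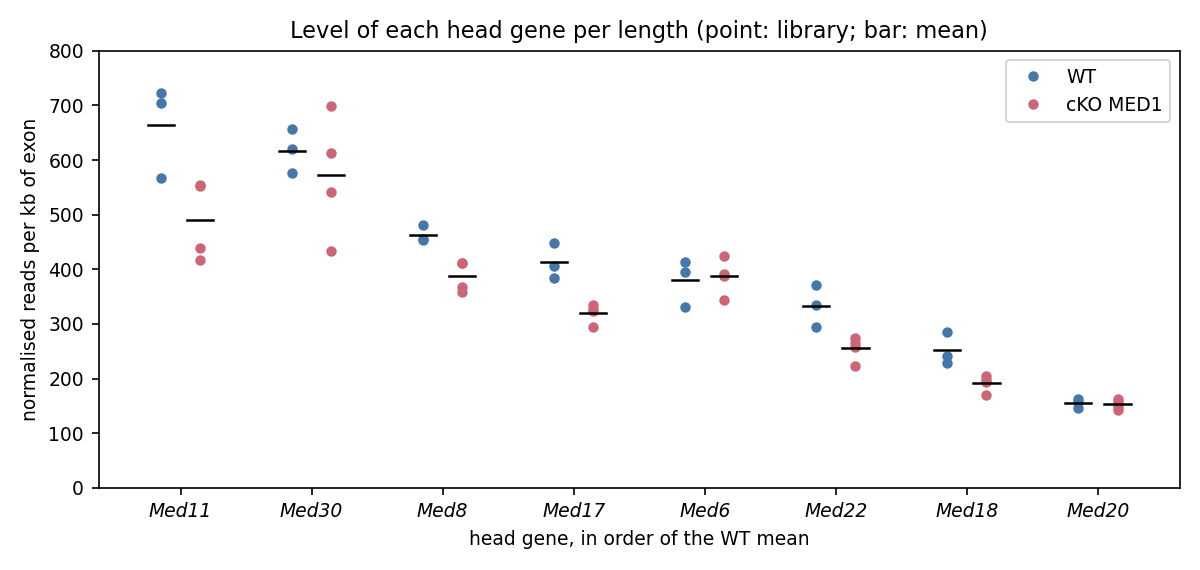
Normalised reads per kb of exon (y axis, from 0) of each head gene in the order of the WT mean, with a point for each WT (blue) and cKO MED1 (red) library and a bar at each group mean. Med11 and Med30 are the highest and Med20 the lowest, and for Med20 the WT and cKO MED1 means are 155 and 153.

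Likeness between genes was measured as the root mean square difference of log2 profiles over the 7 libraries, each centred on its own mean. Among the 28 pairs of head genes the closest was Med17 with Med22 (0.06), followed by Med17 with Med18 (0.07). The most distant was Med11 with Med20 (0.29). These profiles hold the difference between the groups, so closeness among the called genes is no separate result. The search outside the module left out predicted genes, clones, pseudogenes, unannotated features, Ig and T cell receptor segments, Y-linked genes and Xist. Of the remaining tested genes the 3 closest to the mean head profile were Cdc16, a subunit gene of the anaphase-promoting complex (0.017), Tfam, the mitochondrial DNA packaging factor (0.018), and Nudcd1 (0.02). That profile already holds the difference between the groups. Lower values of these 3 in cKO MED1 thus follow from how they were chosen and are no separate result. Tfam fell by 0.27 (limma adjusted p = 0.0414), a call that ended in 7 of 20 alternatives, among them without WT replicate 1 (-0.24, limma adjusted p = 0.147), WT replicate 2 (0.0841) or cKO MED1 replicate 4 (0.0929), and Cdc16 (-0.23, limma adjusted p = 0.0721) and Nudcd1 (-0.24, limma adjusted p = 0.0555) did not pass.

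Counts for the other Mediator modules are set beside 14.6% of all tested genes called lower and 13.4% called higher. Of 9 middle module genes 6 were lower and 0 higher, with a median log2 fold change of -0.31, and Med1 (-0.89) and Med9 (-0.60) had the smallest p. The 6 include Med1, the gene the genotype is named for, which also enters the median and the mean levels of this module. The middle module count was 2 without WT replicate 1, WT replicate 2 or cKO MED1 replicate 4, and 3 without cKO MED1 replicate 3. Of 9 tail and scaffold genes 1 passed, Med29 (-0.46, limma adjusted p = 0.0273), with a median of -0.24. That call was lost without WT replicate 1 (limma adjusted p = 0.125), WT replicate 2 (0.0598) or cKO MED1 replicate 4 (0.0585). Of 7 kinase module genes 2 rose, Med12l (0.99) and Med13l (0.44), 0 fell, and the median was 0.08. The Med13l call was lost with the authors' size factors (0.30, limma adjusted p = 0.0879) and total reads (0.19, limma adjusted p = 0.41), and without WT replicate 1 (0.0703) or WT replicate 2 (0.0576). The mean log2 level of the 8 head genes relative to WT was -0.30, -0.20, -0.14 and -0.35 across the cKO MED1 libraries in replicate order, and that of the middle module -0.34, -0.21, -0.16 and -0.33, so replicate 3 was the least and replicates 1 and 4 the most lowered in both. The tail and scaffold genes stood at -0.15, -0.18, -0.24 and -0.29, and the kinase module at 0.22, 0.19, 0.06 and 0.23. Differences between modules were not tested.

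**Figure D5:**
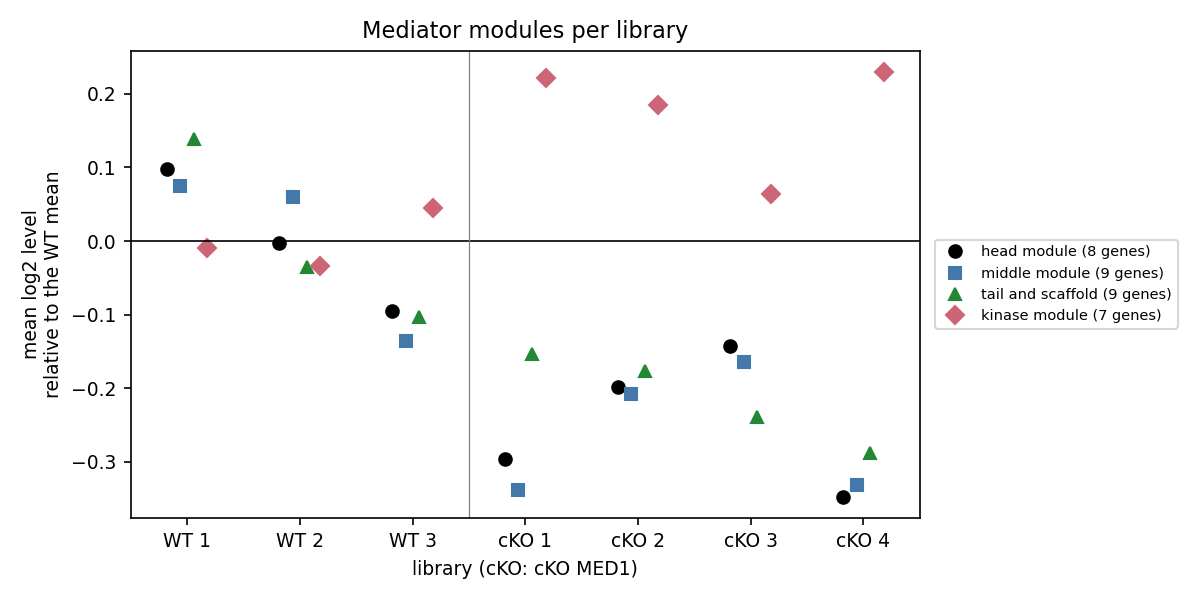
Mean log2 level of the tested genes of each Mediator module in each library, relative to the mean of the WT libraries (y axis), for the head (black), middle (blue), tail and scaffold (green) and kinase (red) modules. The head and middle points lie below 0 in all 4 cKO MED1 libraries (-0.14 to -0.35), and so do the tail and scaffold points (-0.15 to -0.29). The kinase points lie above 0 (0.06 to 0.23). Med1 is among the middle module genes.

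Genes for the proteins that the head module meets were lower in part. Of 12 RNA polymerase II subunit genes 5 fell and 0 rose (median log2 fold change -0.33), led by Polr2f (-0.60, limma adjusted p = 0.0103, and 0.0545 without WT replicate 1) and Polr2b (-0.36, limma adjusted p = 0.0169), the second largest subunit. Polr2a, the catalytic subunit gene, had 1813 ± 314 normalised reads in WT and 2183 ± 254 in cKO MED1 and did not pass (0.28, limma adjusted p = 0.131). Of 10 TFIIH genes 4 fell and 0 rose (median -0.28), led by Ccnh, the cyclin of the CDK-activating kinase (-0.37), and Gtf2h1 (-0.35). Among 8 genes of TBP, TFIIA, TFIIB, TFIIE and TFIIF, 2 fell, both of TFIIF, Gtf2f1 (-0.35) and Gtf2f2 (-0.27), and 0 rose (median -0.12). The Gtf2f2 call ended in 10 of 20 alternatives, 6 of them fits without a single library (all but cKO MED1 replicate 2; limma adjusted p = 0.0501 to 0.144). Over the 3 lists the count of lower genes was 0 without WT replicate 1, 5 without WT replicate 2 and 6 without cKO MED1 replicate 4, where it was 11 with all libraries. In all, 11 of 30 polymerase and general factor genes were called lower. Of the 25 Mediator genes outside the head 7 were, Med1 itself among them. The shares were 14.6% of all tested genes and 23.2% of those in the level range of the head genes. These lists reach beyond that range, with a mean CPM from 3.27 (Med12l) to 216 (Med13), so the second share is not matched to them by level.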

How the data were processed

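The deposited values are a signal per gene for 7 libraries, read counts that the authors had divided by 1 size factor per library. In each library 100.0% of values, divided by the smallest value above 0 in that library, came out whole (tolerance 1e-06). That smallest value was taken as 1 read, which gave back the reads. The submitters' processing notes name DESeq2, R 3.4, Subread 1.5.0-p3 with featureCounts, and STAR 2.4.0a, and the build GRCm38 (mm10). Their roles and any use of strand are not given in the sources used, and antisense reads cannot be told apart. Positions and exonic lengths come from GENCODE M21 (GRCm38) by symbol.

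Reads were scaled by TMM factors (edgeR 4.0.16), filtered by filterByExpr (18062 genes) and tested with limma 3.58.1 (R 4.3.3, intensity trend) on log2(normalised reads + 1). edgeR's quasi-likelihood test on recovered reads called 5340 genes and limma 5065. The scripts were tested on simulated data. Depth was 31937372 to 61149274 reads, and SD is between libraries. The members, lists and tests were chosen with earlier results of these data known. Named genes are the 8 members and Med1, their annotated neighbours (overlapping, or starting within 1000 bases), up to 2 called genes per list by adjusted p, and the 3 genes nearest in profile among those with a mean CPM of at least 5. Polr2a, Adgre1, Cd68, Cd3d, Cd4, Xbp1 and the 3 plasma cell markers called higher were named after their values were seen, and the 4 read ratios were chosen then too. A gene that the rule also names is not reported here. Alternatives were other scalings, filters, tests, a pseudocount of 5, the replicate number as a block, sex, background subtraction and libraries left out.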

Additional observations from a re-analysis of the deposited data

Results flagged for a closer look

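Jchain, named among the plasma cell markers, had 27607 normalised reads in cKO MED1 replicate 3, a library that stood apart from the other 3 of its group for this gene. The gap was above the 95% limit of Dixon's test, which chance passes in about 1 of 20 groups. The test was run on every head gene and on other named genes, so a single pass among them can arise by chance. No head gene met that limit.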

How the results depend on the processing

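The number of head genes called lower (5) was the same with RLE factors, total reads, the authors' size factors, no filter, edgeR, DESeq2, limma-voom, a pseudocount of 5 and background subtraction. It was 1 with the filter of CPM 1 in 3 libraries, 0 with sex as a covariate and 0 without cKO MED1 replicates 3 and 4, and ranged from 0 to 5 with 1 library left out. The cause of these losses was not tested. Calls over all genes moved with the setting as well, and the counts of the lists below are to be read beside them. Of 18062 tested genes 2646 were called lower in the main fit, 4379 with total reads, 3585 with the authors' size factors and 119 with sex. The number was 1393 without cKO MED1 replicates 3 and 4, and 841 to 3187 with 1 library left out. It was 3789 of 43065 with no filter and 1624 of 12562 with the CPM filter. The number of other Mediator genes called lower (7) was 13 with total reads, 13 with no filter, 3 with the CPM filter, 1 with sex and 2 without cKO MED1 replicates 3 and 4, from 2 to 9 with 1 library left out; the number called higher (2) was 1 with total reads, the authors' size factors or no filter, 0 with sex, and 1 to 3 with 1 library left out. Polymerase and general factor genes called lower (11) were 21 with total reads, 18 with the authors' size factors, 20 with no filter, 6 with the CPM filter, 0 with sex and 3 without cKO MED1 replicates 3 and 4, from 0 to 12 with 1 library left out; those called higher (0) were 1 with the CPM filter and 0 to 2 with 1 library left out.

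The replicate numbers were not used to pair the samples in the main fit. The correlation of deviations ran from -0.23 to 0.51 for same-numbered libraries and from -0.58 to 0.40 for those with different numbers. So few values cannot decide whether the numbers pair the samples. With the replicate block, which gives cKO MED1 replicate 4 no weight, 1 head gene (Med17), 3 other Mediator genes and 7 polymerase and general factor genes were called lower, and 3741 genes in all.

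The 5 called genes stayed negative in all 20 alternatives. Changes of sign were seen only among uncalled genes. Med6 was -0.21 with total reads, -0.10 with the authors' size factors, -0.13 with no filter and -0.056 without cKO MED1 replicates 3 and 4, and -0.082 to 0.076 with 1 library left out. Med20 was 0.088 with the CPM filter and -0.084 to 0.00596 with 1 library left out. Med30 was 0.18 with sex. Rpl7a was -0.19, -0.084 and -0.11 with total reads, the authors' size factors and no filter, and -0.0201 to 0.11 with 1 library left out. Over all genes, 228 were called with sex as a covariate and 1362 without WT replicate 1. The share of calls that were higher was 47.8%, and 31.8% when scaled by total reads or 37.3% by the authors' size factors.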
